A study of Mus musculus with 12 samples.

Results

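The genes followed here are the insulin-like growth factor (IGF) system of C2C12 cells, a myoblast line from C3H mouse muscle, with and without silencing of Bach1. Igf1, Igf2, Igf1r, Igf2r and Igfbp2 to Igfbp7 were taken as members, and every probe of the deposited table that carried one of these gene symbols was used. This gave 10 genes and 19 probes out of 27306 gene symbols and 56605 probes on the array. Tests were limited to probes that the scanner marked as well above background in every replicate of some condition. This held for 17 of the 19 member probes, covering all 10 genes, and for 29664 probes in all. The probes left out were A_52_P306327 for Igf1 and A_55_P1992715 for Igfbp3, which were not well above background on any of the 12 arrays.

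All cells were transfected with an siRNA. The siControl cells received a negative control siRNA and the siBach1 cells received siBach1-2, a single siRNA against Bach1, so that effects of this siRNA on other transcripts cannot be told apart from those of Bach1. Day 0 cells had no induction of differentiation. Day 2 cells had been moved 24 h after transfection from medium with 10% fetal bovine serum to medium with 2% horse serum. In the latter C2C12 myoblasts fuse into myotubes. A change with differentiation below means day 2 against day 0, in which differentiation, serum and time since transfection cannot be told apart. The 4 conditions (siControl and siBach1 at day 0 and at day 2) had 3 arrays each, and it is not stated whether the replicates were separate cultures, so p-values measure the spread between these samples.

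IGF1 and IGF2 are secreted growth factors that act through IGF1R, a receptor tyrosine kinase which signals through IRS adaptors to PI3 kinase and Akt. IGF2R, also the receptor for mannose 6-phosphate, takes up IGF2 and sends it to the lysosome, and the IGF binding proteins hold the ligands outside the cell, prolonging their life or keeping them from the receptor. Differentiating myoblasts make their own IGF2, and this autocrine supply is a known driver of myotube formation.

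Levels are log2 of the scanner's processed signal minus the 75th percentile of its array, so that 0 is the signal at that percentile. They compare arrays for the same probe and not different probes. Differences are given on the log2 scale with the standard error (SE) of a limma fit of all 12 arrays, and a probe was said to pass where its Benjamini-Hochberg adjusted p over the 29664 tested probes was under 0.05. On each array the scanner marked between 47.6% and 58.9% of probes as well above background, and it marked no spot as saturated. Bach1 itself (A_55_P2014337) was at 1.73, 1.55 and 1.78 in the siControl arrays of day 0 and at 0.18, -0.22 and -0.22 in the siBach1 arrays. Its signal fell by 1.77 (SE 0.11, adjusted p = 1.2e-05) at day 0 and by 1.97 (SE 0.11, adjusted p = 1.4e-05) at day 2. Of 6 myoblast markers 5 were detected, Myf5 being the exception, and all 6 of the 7 myotube markers that the array carried were detected, Mymk having no probe. Markers of other cell types were detected in part. These were Plin1 and Lep but not Adipoq or Cidec for adipocytes, Bglap, Sp7 and Dmp1 but not Ibsp for osteoblasts, and Pecam1 but not Cdh5, Kdr or Tie1 for endothelium. For blood cells and macrophages they were Ptprc, Csf1r, Cd68 and Itgam but not Adgre1, and for neural cells Sox10 and Syp but not Rbfox3 or Gfap. A marker counted as detected where any of its probes was well above background in every replicate of some condition. Other probes of Ptprc, Itgam, Cd68, Plin1, Bglap and Sp7 did not meet this. Bglap met it only in siBach1 cells at day 2, and Dmp1 only in siControl cells at day 2.

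**Figure D1:**
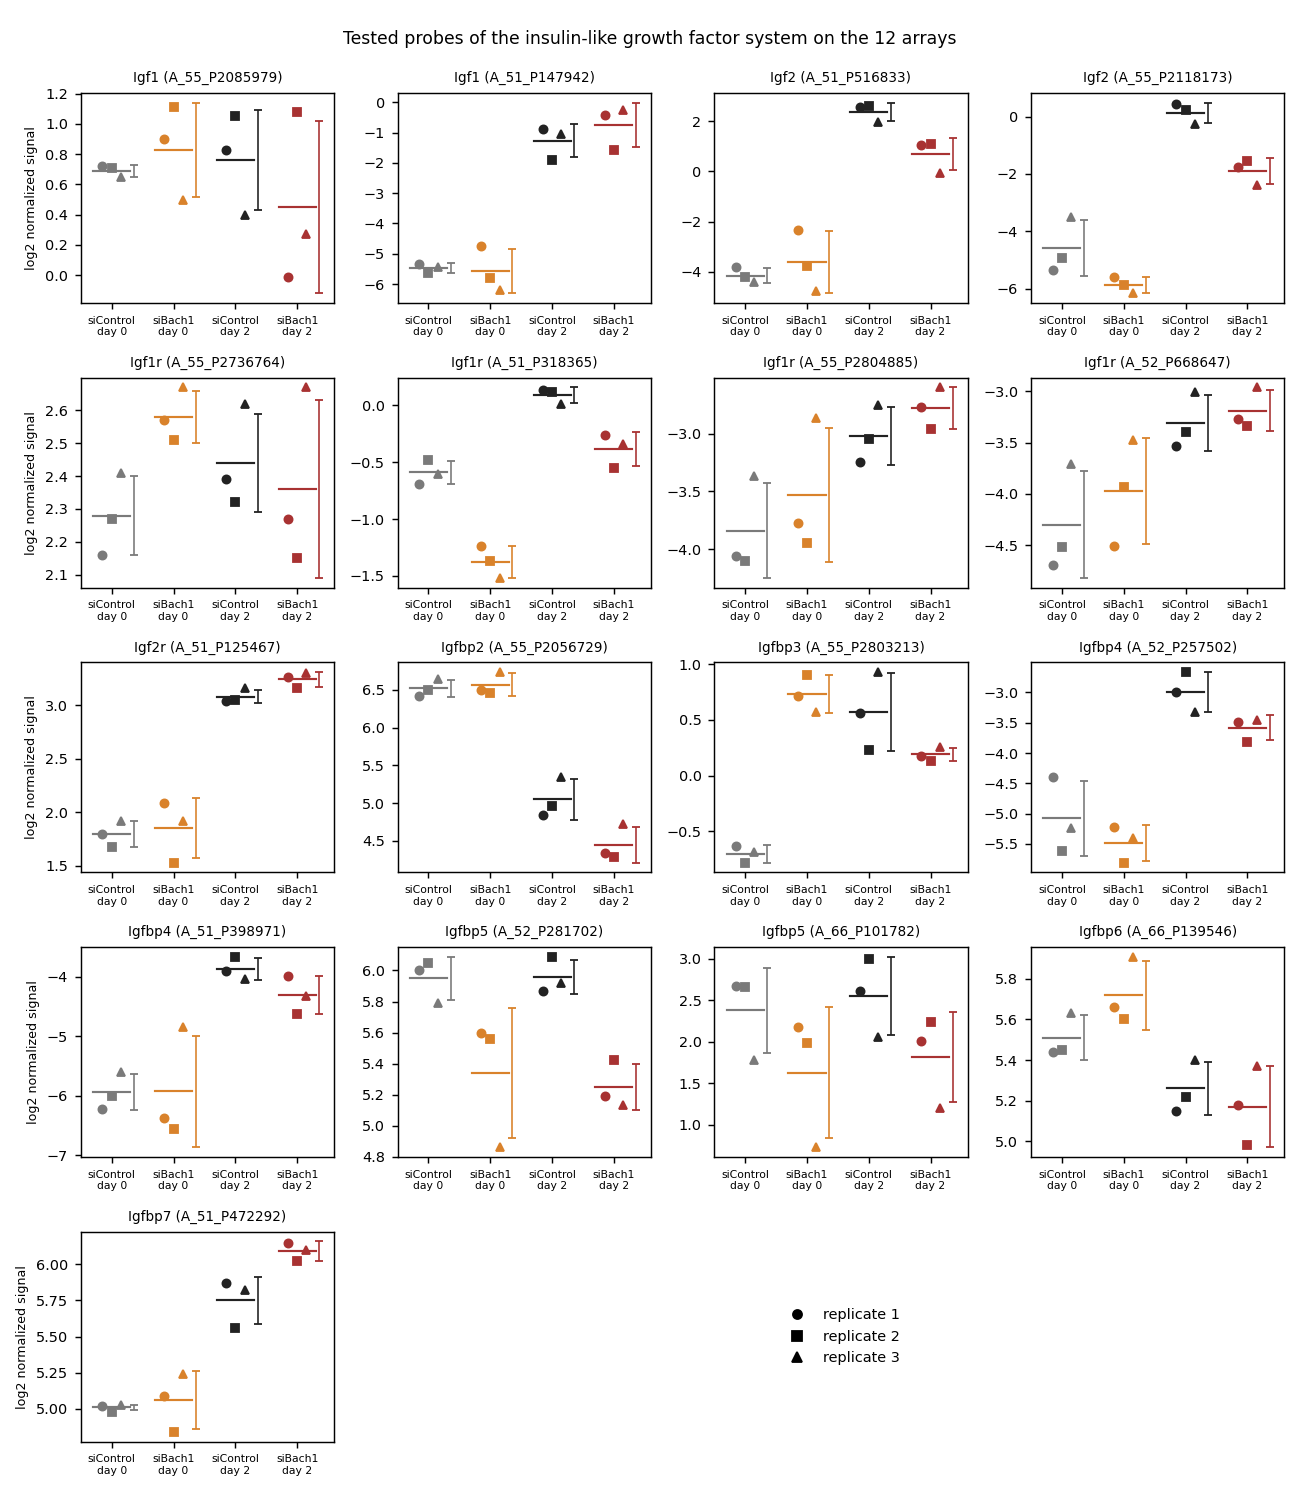
Log2 normalized signal (y axis) of the 17 tested probes in each of the 4 conditions (x axis). Symbols are single arrays, horizontal lines are means and bars beside them are SDs of 3 arrays, and each panel has its own y scale. Both Igf2 probes and Igf1 A_51_P147942 are far higher at day 2 in both siRNAs, and Igfbp3 A_55_P2803213 is lowest in siControl cells at day 0.

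The largest changes among the members came with differentiation, and they were in the ligands. In siControl cells 11 of the 17 member probes rose from day 0 to day 2 and 1 fell, at a time when 53.4% of all tested probes passed. In siBach1 cells 10 rose and 3 fell, against 56.1% of all tested probes. Over all tested probes, 24.6% rose and 28.7% fell in siControl cells, and 23.8% rose and 32.3% fell in siBach1 cells. With the replicate number as a block, 13 and 14 member probes passed, against 62.7% and 64% of all probes. Whether the members differ from other probes in these shares was not tested. The median change of the member probes was 0.82 in siControl and 0.78 in siBach1 cells, and over all tested probes it was 0.00 and -0.07. At least a 2-fold change together with the test was met by 8 member probes in each siRNA, against 20% and 20.5% of all probes. The arrays of day 0 and day 2 did not overlap for 13 member probes in siControl and 12 in siBach1 cells, against 61.9% and 61.3% of all probes. Igf1 A_51_P147942 and both probes of Igf2 and of Igfbp4 met the filter for testing only at day 2. They were tested because they were high there, so the counts and medians above partly follow from the filter. Among probes well above background on all 12 arrays, 7 member probes passed in siControl and 8 in siBach1 cells. Of all 24801 such probes, 14039 and 14692 passed.

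**Figure D2:**
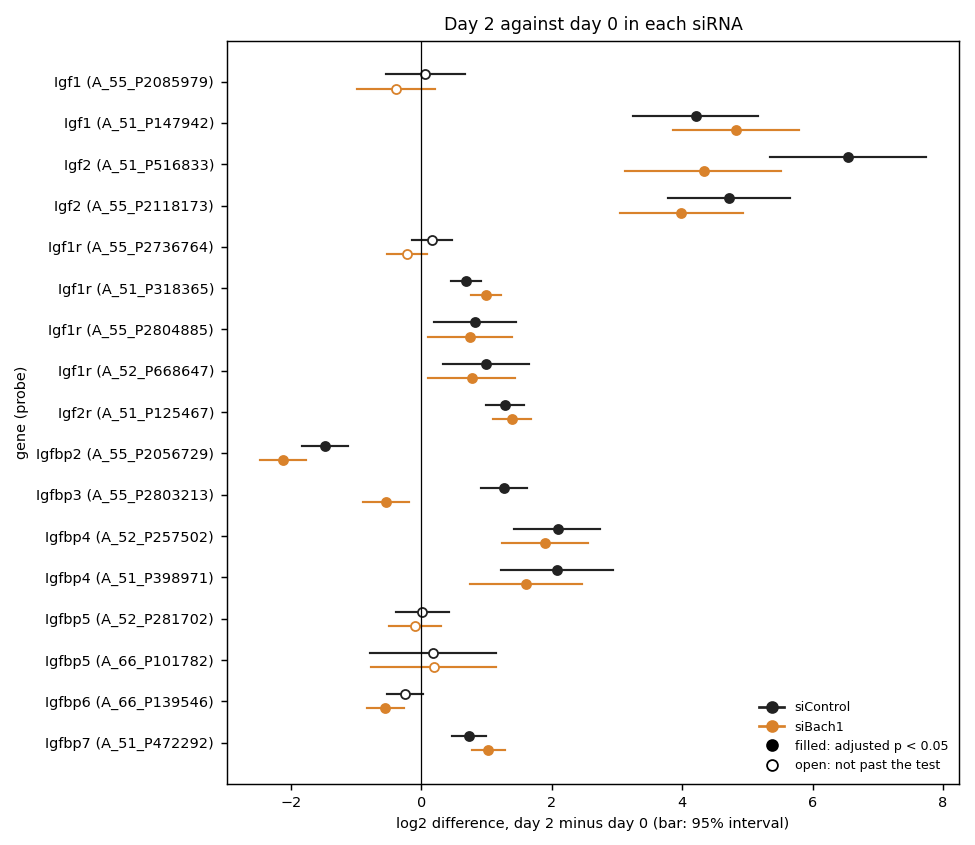
Log2 difference between day 2 and day 0 (x axis) of each member probe (y axis) in siControl and in siBach1 cells, with 95% intervals of the limma fit. The ligands Igf1 (A_51_P147942) and Igf2 are farthest to the right, Igfbp2 is on the left in both siRNAs, and Igfbp3 lies on opposite sides.

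Igf2, the ligand that differentiating myoblasts secrete, had 2 probes, both designed on the same transcript. On A_51_P516833 siControl cells were at -3.82, -4.23 and -4.43 at day 0 and at 2.56, 2.63 and 1.96 at day 2. The siBach1 cells were at -2.32, -3.79 and -4.77 at day 0 and at 1.04, 1.11 and -0.05 at day 2. All day 2 arrays lay above all day 0 arrays, and at day 2 each siBach1 array lay below each siControl array. The rise was 6.54 (SE 0.54, adjusted p = 3.7e-06) in siControl cells and 4.33 (SE 0.54, adjusted p = 6e-05) in siBach1 cells. At day 0 only 2 of 3 arrays of each siRNA were well above background on this probe, so the size of both rises is uncertain.

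The second Igf2 probe, A_55_P2118173, was at -5.35, -4.92 and -3.5 in siControl cells at day 0 and at 0.44, 0.22 and -0.25 at day 2. The siBach1 arrays read -5.61, -5.89 and -6.17 at day 0, where no array was well above background, and at -1.77, -1.54 and -2.38 at day 2. The groups fell in the same order at day 2 as on the first probe, with no overlap. The rise was 4.72 (SE 0.42, adjusted p = 6.3e-06) in siControl cells, where 1 of 3 arrays was well above background at day 0. In siBach1 cells it was at least 5.58-fold (fitted difference 3.99, adjusted p = 1.9e-05), where the bound sets the day 2 mean against the lowest signal well above background on each day 0 array, or the probe's own signal where that was higher. Under the alternatives the rise on this probe was as low as 2.9 in siControl and 1.34 in siBach1 cells. The same kind of bound is used below, and it holds only for the background subtraction and scaling of the main fit.

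At day 2 Igf2 was lower in silenced cells on both probes. A_55_P2118173 fell by 2.03 (SE 0.42, adjusted p = 0.013), or 4.09-fold, and passed in each of the 12 fits that left out 1 array, at adjusted p values up to 0.049. A_51_P516833 differed by -1.68 (SE 0.54, 95% interval -2.87 to -0.48), which did not pass (adjusted p = 0.071). With the replicate number as a block it passed at 0.013, and also without siBach1 day 0 replicate 1 (0.021) or replicate 3 (0.031). Within slide 1, which held replicates 1 and 2, the differences were -1.98 and -1.52, and on slide 2, with 1 array a condition, they were -2.13 and -2.01. At day 0 neither probe passed, with differences of -1.30 (SE 0.42, adjusted p = 0.061) on A_55_P2118173 and 0.53 (SE 0.54, adjusted p = 0.55) on A_51_P516833, so the probes had opposite signs at signals near background. On A_55_P2118173 the day 0 difference was -0.61 within slide 1, passed at 0.03 without siControl day 0 replicate 1 (-1.68) and at 0.045 with a trended, robust prior, and was -0.03 after another background correction (normexp). The difference between the effects of silencing at day 2 and day 0 was -2.21 (SE 0.76, adjusted p = 0.12) and -0.73 (SE 0.60, adjusted p = 0.54). It passed for A_51_P516833 with the replicate block (0.027), and for both probes after normexp (-1.88 and -1.56, adjusted p = 0.012 and 0.011).

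Like Igf2, the myotube markers were higher at day 2 than at day 0, and at day 2 they were lower in siBach1 cells. The log2 of the summed signal of the myotube markers was 10.52 to 10.58 in siControl and 9.85 to 10.09 in siBach1 cells at day 2, and 5.49 to 6.03 and 5.43 to 5.87 at day 0. That of the myoblast markers was 7.51 to 7.65 and 7.3 to 7.47 at day 2, and 6.67 to 6.79 and 7.0 to 7.05 at day 0. Such a sum follows its brightest probes, and the members of the myoblast list did not all move alike. In siControl cells the mean of Cdh15 went from 5.87 to 6.79 with differentiation, and that of Pax7 from -1.72 to -2.12. The part of these markers in the Igf2 result was not tested, and in RNA of whole cultures fewer differentiating cells and less RNA per cell cannot be told apart.

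Igf1, the other ligand, passed on 1 of its 2 tested probes. A_51_P147942 was at -5.33, -5.65 and -5.44 in siControl cells at day 0, with no array well above background, and at -0.88, -1.89 and -1.03 at day 2. With silencing it was at -4.74, -5.79 and -6.18 at day 0, with 1 array well above background, and at -0.41, -1.58 and -0.24 at day 2. The days were far apart and the siRNAs overlapped at both days. The rise was at least 10.4-fold in siControl cells (fitted difference 4.21, adjusted p = 1.7e-05). It was 4.83 (SE 0.43, adjusted p = 6.4e-06) in siBach1 cells, a size that is uncertain with 1 array above background at day 0. Under the alternatives the differences were as low as 1.93 in siControl and 2.24 in siBach1 cells. Silencing gave differences of -0.10 (95% interval -1.06 to 0.87, adjusted p = 0.91) at day 0 and 0.52 (-0.44 to 1.49, adjusted p = 0.49) at day 2.

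On the other tested Igf1 probe, A_55_P2085979, no change passed. Its levels were 0.72, 0.71 and 0.65 in siControl cells at day 0, 0.83, 1.05 and 0.4 at day 2, and with silencing 0.9, 1.11 and 0.5 before and -0.01, 1.08 and 0.27 after induction. All 4 conditions overlapped. The difference with differentiation was 0.06 (95% interval -0.54 to 0.67, adjusted p = 0.86) in siControl and -0.39 (-0.99 to 0.21, adjusted p = 0.25) in siBach1 cells, and without siBach1 day 2 replicate 2, the highest array of its condition, the latter was -0.71 and passed (adjusted p = 0.021). The accession of this probe was not found in the RefSeq table used here, whereas that of A_51_P147942 was found and belongs to Igf1. Which Igf1 transcripts each probe reads was not tested.

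A window before 1 annotated start of Igf1 is shown because this ligand rose with differentiation on A_51_P147942. Sequences of promoters are from RefSeq (GRCm38.p6), cover the 250 bases before the annotated start and are written 5′ to 3′ on the strand of the gene, with capitals for motifs. The motifs searched on both strands of windows from 250 bases before to 50 bases after a start were CAGCTG and CACCTG, E-box forms that MyoD family factors bind, TGANNNNGC, the core of the antioxidant response element that Bach1 and Nrf2 bind with small Maf proteins, and TGANTCA, the AP-1 site. They were found in 16.3%, 20.2%, 41.3% and 7.81% of all 32851 windows. In the Igf1 window (chr10:87860861-87861110, plus strand) the capitals are CAGCTG, starting 157 bases before the start of transcription, and TGANTCA, starting 37 bases before it.
Igf1: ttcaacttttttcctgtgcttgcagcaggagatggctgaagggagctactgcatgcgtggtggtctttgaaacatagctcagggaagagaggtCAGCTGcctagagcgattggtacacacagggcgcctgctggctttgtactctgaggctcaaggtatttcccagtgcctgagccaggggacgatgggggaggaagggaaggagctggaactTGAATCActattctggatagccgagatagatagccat
All 4 Igf2 windows lacked the E-box forms and TGANTCA, and 1 of them held TGANNNNGC, just after the start. A match is a description of the letters and not a bound site.

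Among the receptors, Igf2r, which takes IGF2 into the cell, rose in both siRNAs. Its only probe (A_51_P125467) was at 1.8, 1.68 and 1.92 in siControl cells at day 0 and at 3.04, 3.05 and 3.16 at day 2. The silenced arrays read 2.09, 1.53 and 1.92 before and 3.26, 3.16 and 3.3 after induction. The days did not overlap, and the rise was 1.28 (SE 0.13, adjusted p = 1.6e-05) in siControl and 1.39 (SE 0.13, adjusted p = 8.7e-06) in siBach1 cells. Silencing gave differences of 0.05 (95% interval -0.25 to 0.34) at day 0 and 0.16 (-0.14 to 0.45) at day 2, neither past the test (adjusted p = 0.85 and 0.50), although at day 2 each siBach1 array lay at or above the highest siControl array.

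Igf1r, the signalling receptor, had 4 tested probes with different calls. A_51_P318365 was at -0.69, -0.48 and -0.6 in siControl cells and at -1.24, -1.37 and -1.52 in siBach1 cells at day 0. At day 2 it was at 0.14, 0.12 and 0.01 in siControl and at -0.26, -0.55 and -0.34 in siBach1 cells. The siBach1 arrays were below the siControl arrays at both days. The signal fell by 0.79 (SE 0.11, adjusted p = 0.00072) at day 0 and by 0.47 (SE 0.11, adjusted p = 0.018) at day 2. The day 2 call was lost without siControl day 2 replicate 1 (-0.45, adjusted p = 0.062), without siBach1 day 2 replicate 2 (-0.39, adjusted p = 0.061) and within slide 1 (-0.53, adjusted p = 0.055).

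A_55_P2736764, made for the same transcript accession, gave no such fall. It was at 2.16, 2.27 and 2.41 in siControl cells and 2.57, 2.51 and 2.67 in siBach1 cells at day 0, so that here the silenced arrays were the higher ones. The difference was 0.30 (SE 0.14, adjusted p = 0.17) at day 0, which passed with the replicate block (0.031), and -0.08 (SE 0.14, adjusted p = 0.77) at day 2. A_55_P2804885 and A_52_P668647, made for other transcript records, gave silencing differences of 0.12 to 0.34 that did not pass. With differentiation A_51_P318365 rose by 0.68 (SE 0.11, adjusted p = 0.0003) in siControl and by 1.00 (SE 0.11, adjusted p = 1.9e-05) in siBach1 cells. A_55_P2804885 and A_52_P668647 rose by 0.75 to 0.99 at adjusted p values of 0.017 to 0.048. These are calls close to the limit, and in siBach1 cells they were lost each in 9 of the 12 fits that left out 1 array, and also after quantile normalization and normexp. In siControl cells A_55_P2804885 lost its call in 4 and A_52_P668647 in 3 of these fits, and both did after quantile normalization. A_55_P2736764 gave 0.16 (adjusted p = 0.35) and -0.22 (adjusted p = 0.20), and in siBach1 cells the latter passed with the replicate block (0.048), within slide 1 (-0.33, 0.018) and without siBach1 day 2 replicate 3 (-0.37, 0.024).

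Between the siRNAs, 3 of the 17 member probes passed at day 0 and 4 at day 2. At day 0, 1 member probe was higher (Igfbp3) and 2 were lower (Igf1r A_51_P318365 and Igfbp5 A_52_P281702) in siBach1 cells, where 17.1% of all tested probes passed (8.8% as higher and 8.32% as lower), and the median difference of the members was 0.05 against 0.09 over all probes. At day 2, none was higher and 4 were lower (Igf2 A_55_P2118173, Igf1r A_51_P318365, Igfbp2 and Igfbp5 A_52_P281702), where 12% of all tested probes passed (5.75% as higher and 6.26% as lower), with a median of -0.38 against -0.01. Among all member probes, 1 passed with a 2-fold change at each day, Igfbp3 at day 0 and Igf2 at day 2, against 2.79% and 2.17% of all probes. Arrays of the siRNAs did not overlap for 5 member probes at day 0 and 8 at day 2, against 37.3% and 32.8% of all probes. With the replicate number as a block 6 member probes passed at day 0 and 7 at day 2, and this block also raised the share of all probes to 27.5% and 21.3%. The day 2 count was 2 without siControl day 2 replicate 1 or 3 and without siBach1 day 2 replicate 1 or 2.

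**Figure D3:**
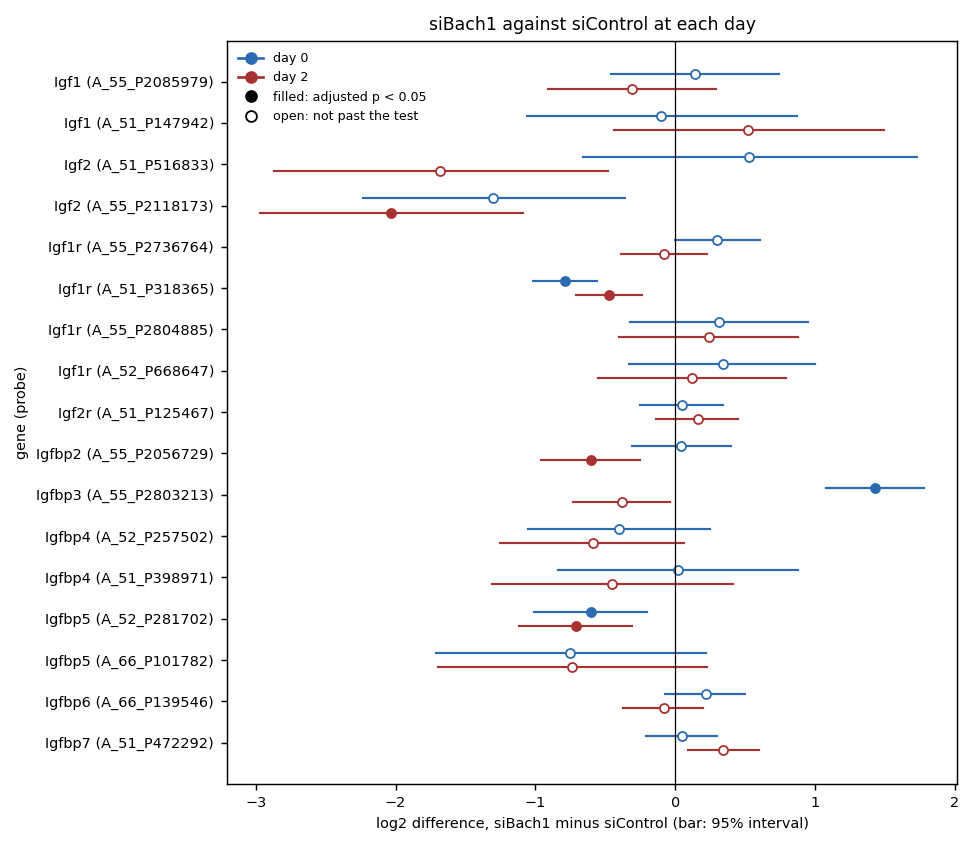
Log2 difference between siBach1 and siControl cells (x axis) of each member probe (y axis) at day 0 and day 2, with 95% intervals of the limma fit. Filled points passed the test, and Igfbp3 at day 0 (1.43) is the only filled point to the right of 0.

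Igfbp3, a carrier of IGFs in the circulation and a secreted inhibitor of growth in many cells, was the member whose response to silencing differed between the days. The tested probe (A_55_P2803213) was at -0.63, -0.78 and -0.68 in siControl cells at day 0 and at 0.56, 0.23 and 0.93 at day 2. The siBach1 arrays read 0.71, 0.9 and 0.57 at day 0 and 0.18, 0.13 and 0.26 at day 2. The siControl arrays of day 0 lay below the other 9, and the siBach1 arrays of day 0 overlapped with the siControl arrays of day 2. Silencing raised it by 1.43 (SE 0.16, adjusted p = 0.00023), or 2.69-fold, at day 0. At day 2 the difference was -0.38 (SE 0.16, adjusted p = 0.14), and it passed only without siControl day 2 replicate 2, the lowest array of its condition (-0.55, adjusted p = 0.033).

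With differentiation Igfbp3 rose by 1.27 (SE 0.16, adjusted p = 5.9e-05) in siControl cells and fell by 0.54 (SE 0.16, adjusted p = 0.013) in siBach1 cells, the fall being lost without siBach1 day 0 replicate 2 (-0.45, adjusted p = 0.053). The difference between the silencing effects of the days was -1.81 (SE 0.22, adjusted p = 0.0052), with -1.75 within slide 1 (adjusted p = 0.046) and -1.93 on slide 2. It was the only member probe of 17 that passed this test, which 4.59% of all probes passed (2.39% as higher and 2.2% as lower). It also changed at least 2-fold in this test, as did 1.44% of all probes. With the replicate block 3 member probes passed, the others being Igf2 A_51_P516833 and Igfbp2 (-0.64, adjusted p = 0.015), against 13% of all probes. The second Igfbp3 probe was not well above background on any array and was not tested. The probe patterns most like Igfbp3 over the 12 arrays, by the root mean square difference after centring each probe, were those of Mycl (0.227), Acrbp (0.241) and Sbk3 (0.252).

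The Igfbp3 promoter window (chr11:7213924-7214173, minus strand) is shown because this gene had the largest response to silencing at day 0 among the members. Its capitals mark CACCTG, read on the opposite strand and starting 172 bases before the start of transcription, and TGANNNNGC, starting 161 bases before it.
Igfbp3: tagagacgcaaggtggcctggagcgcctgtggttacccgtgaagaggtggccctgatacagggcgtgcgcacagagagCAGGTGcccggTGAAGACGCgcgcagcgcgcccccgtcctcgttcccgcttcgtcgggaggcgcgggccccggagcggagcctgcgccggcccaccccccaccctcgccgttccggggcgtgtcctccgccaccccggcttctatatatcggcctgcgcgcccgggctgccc
A TGANNNNGC core is thus present, as it is in 41.3% of all windows.

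Igfbp5, the binding protein that myoblasts are known to secrete early in differentiation, was lower in silenced cells at both days on A_52_P281702. It was at 6.0, 6.05 and 5.79 in siControl cells and at 5.6, 5.56 and 4.86 in siBach1 cells at day 0. At day 2 it was at 5.87, 6.09 and 5.92 in siControl and at 5.19, 5.42 and 5.13 in siBach1 cells. No siBach1 array reached the lowest siControl array of its day, and siBach1 day 0 replicate 3 was the lowest array of all. The signal fell by 0.60 (SE 0.18, adjusted p = 0.047) at day 0 and by 0.71 (SE 0.18, adjusted p = 0.032) at day 2. The day 0 call held without siBach1 day 0 replicate 1 or 2 but was lost in the 10 fits that left out any other array (differences of -0.68 to -0.36, adjusted p up to 0.14). The day 2 call was lost in 5 of 12 such fits, those without any siControl day 2 array or without siBach1 day 2 replicate 1 or 3 (adjusted p up to 0.099). On the other probe, A_66_P101782, the differences were -0.75 (SE 0.43, adjusted p = 0.28) and -0.74 (SE 0.43, adjusted p = 0.31). They passed with the replicate block (0.0081 and 0.011), since replicate 3 was the lowest array in each condition.

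Differentiation did not move Igfbp5 past the test. The difference on A_52_P281702 was 0.01 (95% interval -0.39 to 0.42) in siControl and -0.10 (-0.50 to 0.31) in siBach1 cells, and on A_66_P101782 it was 0.18 and 0.19. Without siBach1 day 0 replicate 3 the difference on A_52_P281702 in siBach1 cells was -0.34 (adjusted p = 0.039). The nearest patterns over the 12 arrays were those of Cd44 (0.154), a receptor for hyaluronan, Gabrr2 (0.159) and Pfkp (0.163), a phosphofructokinase. The Igfbp5 window (chr1:72874866-72875115, minus strand) is shown because this gene, like Igf1r on A_51_P318365, was lower at both days, and its capitals mark TGANNNNGC, starting 147 bases before the start.
Igfbp5: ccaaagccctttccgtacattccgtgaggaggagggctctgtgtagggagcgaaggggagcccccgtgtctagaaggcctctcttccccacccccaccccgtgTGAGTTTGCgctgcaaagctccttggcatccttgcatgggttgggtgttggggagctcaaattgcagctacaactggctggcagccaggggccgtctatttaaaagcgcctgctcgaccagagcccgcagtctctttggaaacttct
No E-box form or TGANTCA was found in this window.

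Igfbp2, a binding protein of both IGFs, fell with differentiation. Its probe (A_55_P2056729) was at 6.42, 6.5 and 6.64 in siControl cells at day 0 and at 4.84, 4.96 and 5.35 at day 2. The siBach1 arrays were at 6.5, 6.46 and 6.74 at day 0 and at 4.34, 4.28 and 4.73 at day 2. The days were well apart, and at day 2 all siBach1 arrays lay below the siControl arrays. The fall was 2.78-fold in siControl cells (difference -1.47, SE 0.16, adjusted p = 2.4e-05) and 4.34-fold in siBach1 cells (-2.12, SE 0.16, adjusted p = 2.1e-06). Silencing gave 0.04 (SE 0.16, adjusted p = 0.90) at day 0 and -0.60 (SE 0.16, adjusted p = 0.036) at day 2. The day 2 call was lost in 7 of the 12 fits that left out 1 array each, with differences of -0.65 to -0.45 and adjusted p values up to 0.12. These were the fits without siControl day 0 replicate 1 or 2, siControl day 2 replicate 2 or 3, siBach1 day 0 replicate 1, or siBach1 day 2 replicate 1 or 2. The difference between the silencing effects of the days was -0.64 (SE 0.23, adjusted p = 0.13).

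Igfbp4, which keeps IGFs from the receptor until it is cleaved by Pappa, rose with differentiation on both of its dim probes. On A_52_P257502 siControl cells were at -4.4, -5.61 and -5.23 at day 0 and at -2.99, -2.66 and -3.32 at day 2. The siBach1 cells were at -5.22, -5.81 and -5.4 at day 0, not well above background, and at -3.48, -3.82 and -3.45 at day 2. No day 2 array reached down to a day 0 array. The rise was 2.09 (SE 0.29, adjusted p = 0.00015) in siControl cells, with 1 of 3 arrays well above background at day 0, and at least 1.73-fold (fitted difference 1.90, adjusted p = 0.00028) in siBach1 cells. On A_51_P398971 it was at least 1.71-fold in siControl cells (fitted difference 2.08, adjusted p = 0.001). In siBach1 cells, where 2 of 3 arrays were well above background at day 2, it was at least 1.05-fold (fitted difference 1.61, adjusted p = 0.0046), and after normexp 0.21 (adjusted p = 0.22). Under the alternatives the other rises were as low as 0.82 (siControl) and 0.37 (siBach1) on A_52_P257502, and 0.59 (siControl) on A_51_P398971. Silencing differences were between -0.59 and 0.02 on these probes at both days, and none passed.

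Igfbp6, a binding protein that prefers IGF2, was at 5.44 to 5.63 in siControl and 5.6 to 5.91 in siBach1 cells at day 0. At day 2 it was at 5.15 to 5.4 and 4.98 to 5.37, so that the siRNAs overlapped on both days. It fell by 0.55 (SE 0.13, adjusted p = 0.0036) with differentiation in siBach1 cells. In siControl cells the difference was -0.25 (SE 0.13, adjusted p = 0.12), which passed with the replicate block (0.013). The fall in siBach1 cells was -0.22 (adjusted p = 0.12) after quantile normalization. Silencing gave 0.22 (adjusted p = 0.28) at day 0, where the block brought the adjusted p to 0.049, and -0.08 at day 2.

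Igfbp7, a relative with low affinity for IGFs, was at 4.98 to 5.03 in siControl and 4.84 to 5.24 in siBach1 cells at day 0, and at 5.56 to 5.87 and 6.02 to 6.15 at day 2. Levels at day 2 were above all those of day 0, and the siBach1 arrays of day 2 were the highest. The rise was 0.74 (SE 0.11, adjusted p = 0.0003) in siControl and 1.03 (SE 0.11, adjusted p = 2.7e-05) in siBach1 cells. Silencing gave 0.05 (adjusted p = 0.82) at day 0 and 0.34 (SE 0.11, adjusted p = 0.081) at day 2. The latter passed with the replicate block (0.022) and the slide block, and after quantile normalization and normexp. It also passed with a trended, robust prior and by the unadjusted t-test. In the 12 fits that left out 1 array it did not pass (adjusted p of 0.055 to 0.22). In neither Igfbp6 nor Igfbp7 did the difference between the days pass (-0.30 and 0.29, adjusted p = 0.37 and 0.33).

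The neighbours of Igf2 on the chromosome were counted with the proteins that bind its mRNA, as 7 genes with 8 tested probes. At day 0, 3 of these probes were higher and 1 lower in siBach1 cells, and at day 2 only Igf2os was lower, with medians of 0.10 and -0.12 against 0.09 and -0.01 over all probes, of which 17.1% passed at day 0 and 12% at day 2. Igf2os, a noncoding RNA from the strand opposite Igf2, was at 0.19, 0.54 and 0.55 in siControl cells and at -1.81, -1.31 and -1.56 in siBach1 cells at day 2 (A_66_P116635). Every silenced array was below every control array, as for Igf2 itself. The fall was 1.99 on the log2 scale (difference -1.99, SE 0.27, adjusted p = 0.0019), and at day 0 the difference was -0.02 (adjusted p = 0.97) near background. Igf2os rose by 5.35 (SE 0.27, adjusted p = 1.8e-07) with differentiation in siControl cells, with 1 of 3 arrays well above background at day 0, and at least 7.04-fold (fitted difference 3.38, adjusted p = 3.2e-06) in siBach1 cells. The gene overlaps Igf2 in the RefSeq table, and signal of Igf2 transcripts on its probe was not tested.

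**Figure D4:**
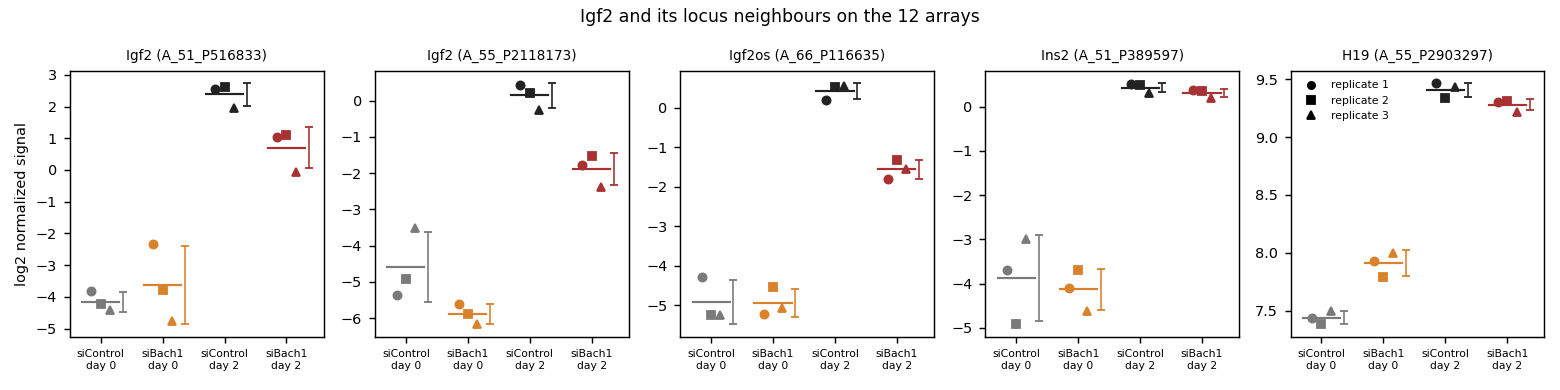
Log2 normalized signal (y axis) of both Igf2 probes and of Igf2os, Ins2 and H19 in each of the 4 conditions (x axis). Symbols are single arrays, lines are means and bars are SDs of 3 arrays, and each panel has its own y scale. At day 2 the siBach1 arrays lie below the siControl arrays for Igf2 and Igf2os, by less for H19, and Ins2 overlaps.

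Ins2, an insulin gene that lies next to Igf2, rose by 4.29 (SE 0.40, adjusted p = 8.8e-06) in siControl and by 4.44 (SE 0.40, adjusted p = 6.7e-06) in siBach1 cells, with 2 of 3 arrays of each well above background at day 0. At day 2 it was at 0.51, 0.48 and 0.3 in siControl and at 0.37, 0.35 and 0.2 in siBach1 cells, which overlapped. Its silencing differences of -0.27 at day 0 and -0.12 at day 2 did not pass. H19, the noncoding RNA expressed from the other parental copy of the locus, was at 7.44, 7.38 and 7.5 in siControl and 7.93, 7.79 and 8.0 in siBach1 cells at day 0, a rise of 0.46 (SE 0.08, adjusted p = 0.0033) with silencing. At day 2 it was at 9.47, 9.34 and 9.43 and at 9.3, 9.31 and 9.22, a difference of -0.14 (adjusted p = 0.31). Of the mRNA binding proteins, Igf2bp2 was higher in silenced cells at day 0 on both probes (0.75 and 0.55, adjusted p = 0.00035 and 0.0097), and Igf2bp3 was lower (-0.47, adjusted p = 0.037). The Igf2bp3 call was lost within slide 1 (-0.35, adjusted p = 0.076) and without siControl day 0 replicate 1 or 3, any siBach1 day 0 array, siControl day 2 replicate 1 or siBach1 day 2 replicate 1 (-0.49 to -0.35, adjusted p of 0.054 to 0.11). Igf2bp2 on A_55_P2170737 was at 0.052 within slide 1.

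The proteases that cleave IGF binding proteins, their carriers and their inhibitors were a list of 10 genes, of which 6 had tested probes, 8 in all. Among these 8 probes 3 were higher and 1 lower in silenced cells at day 0, and again 3 and 1 at day 2, beside 17.1% and 12% of all probes, with medians of 0.20 and 0.41 against 0.09 and -0.01 over all probes. Htra3, a secreted serine protease, was at 0.55, 0.43 and 0.31 in siControl and at -0.74, -0.62 and -0.83 in siBach1 cells at day 0 on A_51_P106538, and the groups were far apart. The fall was 1.16 on the log2 scale (difference -1.16, SE 0.13, adjusted p = 0.00024). Its other probe, A_52_P217437, did not differ in this way at day 0 (-1.14, -1.25 and -1.46 against -1.18, -1.02 and -1.4). At day 2 A_52_P217437 was higher by 0.86 (SE 0.14, adjusted p = 0.0039), whereas A_51_P106538 gave -0.10 (adjusted p = 0.68). The probes were made for different transcript records, and which Htra3 transcripts each reads was not tested. Stc2, an inhibitor of Pappa, was lower by 0.80 (difference -0.80, SE 0.16, adjusted p = 0.011) and Pappa2, a protease of Igfbp3 and Igfbp5, was higher by 0.62 (SE 0.16, adjusted p = 0.034) in silenced cells at day 2. The Pappa2 call was lost without any 1 of the 6 arrays of day 2 (0.57 to 0.65, adjusted p of 0.06 to 0.11), within slide 1 (0.08) and with a trended, robust prior (0.058). Pappa2 also rose with differentiation, by 3.48 in siControl (adjusted p = 1.1e-07) and 3.98 in siBach1 cells (adjusted p = 5.1e-08), the largest change of this list in either siRNA. On this probe (A_55_P1984745) 1 of 3 arrays of each siRNA was well above background at day 0, so the size of both rises is uncertain. Under the alternatives they were as low as 1.57 and 1.77.

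Below the receptor, 22 genes for receptors, adaptors and lipid kinases had 38 tested probes. In silenced cells 5 were higher and 3 lower at day 0, with no 2-fold change, and 3 were higher and 2 lower at day 2, with medians of 0.05 and -0.03 against 0.09 and -0.01 over all probes. The 8 and 5 probes that passed are shares close to the 17.1% and 12% of all probes. The 2 probes past a 2-fold change at day 2, against 2.17% of all probes, were both of Grb14, an adaptor that binds the insulin receptor and restrains it. A_51_P517215 was at -2.37, -2.39 and -2.32 in siControl and at -1.09, -0.74 and -0.63 in siBach1 cells at day 2, and its day 0 levels of both siRNAs were between -1.3 and -0.87. Grb14 thus fell by 1.28 with differentiation in siControl cells (SE 0.13, adjusted p = 1.5e-05) and gave 0.08 (SE 0.13, adjusted p = 0.62) in siBach1 cells. At day 2 it was higher by 1.54 (SE 0.13, adjusted p = 0.00013) in silenced cells. On A_55_P2721474, which was not well above background in siControl cells of day 2, it was higher by at least 1.96-fold in the main fit (fitted difference 1.67, adjusted p = 0.024). This second Grb14 call was lost after normexp (0.21, adjusted p = 0.16) and without any 1 array of day 2 other than siControl replicate 3 (1.26 to 1.72, adjusted p of 0.058 to 0.071). A_55_P2721474 met the filter for testing only through the siBach1 arrays of day 2, where it is high, so its call is not separate support.

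At day 0 the 3 genes of this list with the largest changes past the test were Gigyf1, Sos1 and Pik3r2. Gigyf1, a partner of Grb10, was higher by 0.68 (SE 0.14, adjusted p = 0.0089) on 1 of its 3 probes. Sos1, the exchange factor that links receptors to Ras, fell by 0.67 (SE 0.11, adjusted p = 0.0023) on A_55_P2918660, and its other probes gave -0.87 (adjusted p = 0.051) and -0.08 (adjusted p = 0.85). Pik3r2, a regulatory subunit of PI3 kinase, was higher by 0.67 (SE 0.20, adjusted p = 0.044) on A_55_P2739463, and its other probe gave 0.38 (SE 0.11, adjusted p = 0.045). The Pik3r2 call on A_55_P2739463 was lost after quantile normalization (0.58, adjusted p = 0.095) and normexp (0.44, adjusted p = 0.05), within slide 1 (0.12), and in 7 of the 12 fits that left out 1 array (0.52 to 0.73, adjusted p of 0.054 to 0.15). Those were the fits without any day 0 array other than siControl replicate 3, without siControl day 2 replicate 3 or without siBach1 day 2 replicate 1. With differentiation 13 of the 38 probes rose and 7 fell in siControl cells, a share close to the 53.4% of all probes that passed. There Pik3ca, a catalytic subunit of PI3 kinase, rose by 1.18 (adjusted p = 0.00026) and Irs2, an adaptor of the receptor, by 0.92 (adjusted p = 0.003). In siBach1 cells 12 rose and 2 fell, against 56.1% of all probes, with 0.83 for the regulatory subunit Pik3r3 (adjusted p = 0.0038), 0.80 for Sos1 on A_55_P2918660 (adjusted p = 0.0001) and -0.77 for the catalytic subunit Pik3cb on A_55_P2743735 (adjusted p = 0.0001). The other probes of these genes did not pass, with 0.08 and 0.52 for Sos1 (adjusted p = 0.83 and 0.067) and -0.02 for Pik3cb (adjusted p = 0.93).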

How the data were processed

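RNA of C2C12 cells was hybridised to 12 one-colour Agilent mouse arrays. Per the file headers, the intensities are processed signals, background subtracted and detrended by Feature Extraction 10.7.3.1 (the submitters' processing notes name 9.1). The deposited table was exported from GeneSpring 14.5. Its normalized log2 values were made by the authors as log2 of the signal minus the 75th percentile of the array and minus the median of the probe, and were rebuilt here to within 0.00034. The authors' columns of fold changes and p-values were not used.

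Control and flagged spots (76 to 110 per array) were left out, spots of 1 probe were averaged, and log2 of the processed signal minus the 75th percentile was fitted for 4 conditions of 3 arrays with limma 3.58.1 in R 4.3.3 (lmFit, eBayes, no block). Tables and figures used Python 3.11.15, pandas 2.3.3, numpy 2.4.6 and matplotlib 3.10.9. An adjusted p under 0.05 was the limit for a call, and an exact permutation test of 3 against 3 arrays cannot go below 0.1. The number of arrays limits the precision. The code was tested on simulated data.

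Slide 1 held replicates 1 and 2 and slide 2 replicate 3. Each condition had its own column of positions on the slides, so position and condition cannot be told apart. Over 18 pairs of same-numbered arrays the deviations from condition means correlated at 0.142 to 0.595, above the limit of 0.1, and over 36 other pairs at -0.442 to 0.264. The numbers, taken from the labels, met the limit for pairing, but same-numbered arrays always shared a slide. Pairs of other number on the same slide correlated at 0.1 to 0.264, and pairs across slides at -0.442 to -0.24. The check therefore cannot tell pairing by number from a difference between slides. The fit described above leaves the replicate number out, and the fit with that number as a block is given beside each result that it changes.

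All probes of the members were named, the targeted gene, and from each list of related genes the probes past the test with a 2-fold change with silencing, or otherwise the 3 genes with the largest change. The members and lists were chosen with earlier results of these data known. Alternatives were quantile normalization, normexp on median signal and median background with an offset of 50, the authors' values, other filters, blocks for replicate and slide, slide 1 only, only the arrays compared, a trended and robust prior, the t-test named in the methods, a 2-fold limit, 1 probe per gene and leaving out each array. The design of the array names mm9. Accessions of 13 of the 19 member probes were found in the RefSeq table, all with the same symbol.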

Additional observations from a re-analysis of the deposited data

Results flagged for a closer look

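The effect of silencing differed between day 2 and day 0 by a test of that difference (limma, Benjamini-Hochberg adjusted p over all tested probes) for 1 probe of the members and 7 of the related genes. For Igfbp3 it was -1.81 (SE 0.22, adjusted p = 0.0052), with 1.43 at day 0 and -0.38 at day 2.

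For Igf2os it was -1.97 (SE 0.39, adjusted p = 0.023), and this call was lost within slide 1 (0.13) and without siBach1 day 2 replicate 1 or siControl day 0 replicate 2 or 3 (adjusted p up to 0.064). H19 gave -0.60 (adjusted p = 0.02), which was lost within slide 1 (0.093), after quantile normalization (0.27) and without siControl day 0 replicate 1 or 2, siControl day 2 replicate 1 or siBach1 day 2 replicate 1 (0.052 to 0.055). Igf2bp2 gave -0.70 (adjusted p = 0.017, and 0.051 without siBach1 day 2 replicate 1) on A_51_P315682 and -0.67 (adjusted p = 0.05, just under the limit before rounding) on A_55_P2170737, where the call was lost without most single arrays (adjusted p up to 0.11).

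For Htra3 on A_51_P106538 it was 1.06 (SE 0.18, adjusted p = 0.015), and for Stc2 -1.24 (SE 0.23, adjusted p = 0.018), both lost within slide 1 (0.062 and 0.084). For Grb14 on A_51_P517215 it was 1.36 (SE 0.18, adjusted p = 0.0078). Each of these 7 calls of related genes was also lost when probes near background were kept in the adjustment (adjusted p of 0.058 for Grb14 to 0.22 for Igf2bp2 A_55_P2170737).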

How the results depend on the processing

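Among 1964 values of 85 member results under the alternatives, 1834 stayed on the same side of the limit, 87 lost a call, 43 gained one and no called value changed sign. Among the 1834, 55 values without a call had the other sign. Of the member probes, 3 passed with silencing at day 0, and 6 did so with the replicate block, 6 with the slide block and 1 with the 2-fold limit. At day 2 the count of 4 became 1 when dim probes were kept, 7 with the replicate block, 7 with the slide block, 0 by the methods' t-test with adjusted p values (7 with unadjusted ones), 1 with the 2-fold limit and 2 with 1 probe per gene. Leaving out 1 array gave 2 to 3 at day 0 and 2 to 5 at day 2. For differentiation in siControl cells the count of 12 became 7 among probes well above background on all 12 arrays and 6 with 1 probe per gene (10 to 12 without 1 array). In siBach1 cells 13 became 8 and 7 in the same settings and 8 with the 2-fold limit (10 to 14 without 1 array). The difference between days had 1 probe, Igfbp3, and 3 after normexp, with the replicate block and with the slide block, and 1 without any 1 array. The t-test and the fit of only the arrays compared give no value for it. The replicate block changed no call of a member beyond those given with the results. Normexp moved the median of all probes to 0.11 at day 0 and to -0.13 for the difference between days. In the related genes a called result changed sign in 1 of 3129 values (60 values without a call did so too), that of Grb14 A_55_P2721474 with differentiation in siControl cells, which was -1.04 and became 0.04 after normexp. The cause was not tested. Igf1 A_51_P147942, Igf2 and Igfbp4 were near background at day 0, which limits the size of their rises.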
